A study of Mus musculus with 8 samples.

Results

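The genes described here encode the acidifying pump of the lysosome and a set of the proteins that work in or around its acid lumen: the subunits and accessory proteins of the vacuolar proton ATPase (V-ATPase), the lysosome-associated membrane proteins (LAMPs) and the cathepsins. They were chosen by symbol (Atp6v0, Atp6v1, Atp6ap1 and Atp6ap2, Lamp1 to Lamp5, and the cathepsin genes Ctsa, Ctsb, Ctsc, Ctsd, Ctsf, Ctsh, Ctsk, Ctsl, Ctso and Ctsz), which gave 38 of the 32531 genes in the count tables: 13 V1 subunit genes, 9 V0 subunit genes, 2 accessory subunit genes, 4 LAMP genes and 10 cathepsin genes. Ribosome-bound RNA was compared between nucleus accumbens and dorsal striatum, with 4 immunopurified libraries from each. Both groups came from untreated mice of the line Drd1-TRAP CP73, aged over 20 months, which carry the transgene Drd1-EGFP/Rpl10a. In these mice regulatory sequence of Drd1, the dopamine D1 receptor gene, drives a fusion of green fluorescent protein and the ribosomal protein Rpl10a, and tagged polysomes were pulled from dissected tissue with antibodies to that protein (translating ribosome affinity purification). The labels do not say whether a library came from 1 animal or several, so a p-value here weighs a difference only against how far these libraries differ among themselves, which may be technical. With no unpurified input analysed here, enrichment over whole tissue was not measured.

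The V-ATPase is a rotary motor. Its V1 sector, in the cytosol, splits ATP and turns a central stalk; its V0 sector, in the membrane, turns with it and carries protons into the lumen of lysosomes, endosomes and synaptic vesicles. The acid lumen lets cathepsins, proteases made as inactive precursors, mature and digest their substrates, while the heavily glycosylated LAMPs line the inner face of the lysosomal membrane. In neurons the same pump also sets up the proton gradient that fills synaptic vesicles with transmitter.

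Gene counts ran from 10831937 to 12639641 per accumbens library and from 7466970 to 10363145 per dorsal striatum library, so 3 reads stand for 0.237 to 0.269 CPM (reads over TMM-scaled library size) in accumbens and 0.296 to 0.415 CPM in dorsal striatum. Direct-pathway markers (Drd1, Tac1, Pdyn, Chrm4, Isl1, Ebf1, Eya1 and Slc35d3) summed to between 1770.4 and 2038 CPM in accumbens libraries and between 2112 and 2379.7 CPM in dorsal striatum libraries; of these, edgeR called Pdyn higher and Ebf1 and Eya1 lower in accumbens. Markers of indirect-pathway neurons, which should lack the tag, summed to between 628 and 908 CPM in accumbens and between 223 and 333 CPM in dorsal striatum. All 6 had positive log2 fold changes (median 1.20), edgeR called Adora2a, Drd2 and Penk higher in accumbens, and their part in the results below was not tested. Across regions, 464 of 12467 tested genes were called by edgeR's quasi-likelihood test (adjusted p under 0.05), or 3.72%: 200 (1.6%) higher and 264 (2.12%) lower in accumbens. Accumbens 2 had the largest share of reads assigned to no gene (40.6%) and dorsal striatum 3 the fewest gene counts, and values without both are given where they matter. The share of reads assigned to no gene did not overlap between regions. It ran from 35.5% to 40.6% in accumbens and from 27.1% to 33.8% in dorsal striatum, and its part in the results was not tested.

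No lysosomal pump, LAMP or cathepsin gene was called as different between the regions. The 38 members together took 0.434% to 0.490% of gene counts in accumbens libraries and 0.393% to 0.463% in dorsal striatum libraries. In such bulk libraries fewer cells of a type and less RNA per cell cannot be told apart. Enough reads for a test were found for 29 members, of which edgeR called 0 higher and 0 lower in accumbens; at an unadjusted p under 0.05 there were 3 (10.3%), namely Atp6v1a, Ctsd and Ctsb, where 14.8% of all tested genes reached that level. Without accumbens 2 only Atp6v1a did, and without both accumbens 2 and dorsal striatum 3 Atp6v1a and Lamp5 did. DESeq2 also called 0 members, with 4 at an unadjusted p under 0.05, and limma-voom called 0, with 3; DESeq2 called 6.26% of all genes and limma-voom 4.17%. Without both accumbens 2 and dorsal striatum 3, edgeR called 0 members and 2.6% of all genes. The median log2 fold change of accumbens over dorsal striatum was 0.09 over the 29 members, beside 0.02 over all tested genes, and 18 of the 29 (62.1%) were positive, beside 51.8% of all tested genes.

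The main fit also gives an interval for each fold change, gene by gene. It rests only on the spread among these libraries, which may be technical, so it may not bound a difference across animals. For 24 of the 29 members the 95% interval of the fold change lay inside 2-fold in either direction, and for 11 it lay inside 1.5-fold. The 5 members whose interval reached beyond 2-fold were Atp6v1c2, Atp6v0e, Ctsf, Ctso and Ctsz, the 5 with the lowest mean CPM. The 4 libraries of each region did not overlap for 5 members (17.2%), where 9.69% of all tested genes showed that: Atp6v1a, Atp6v1c2, Lamp1 and Ctsd lay higher in accumbens (4.51% of all tested genes) and Ctsb lower (5.18%).

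**Figure D1:**
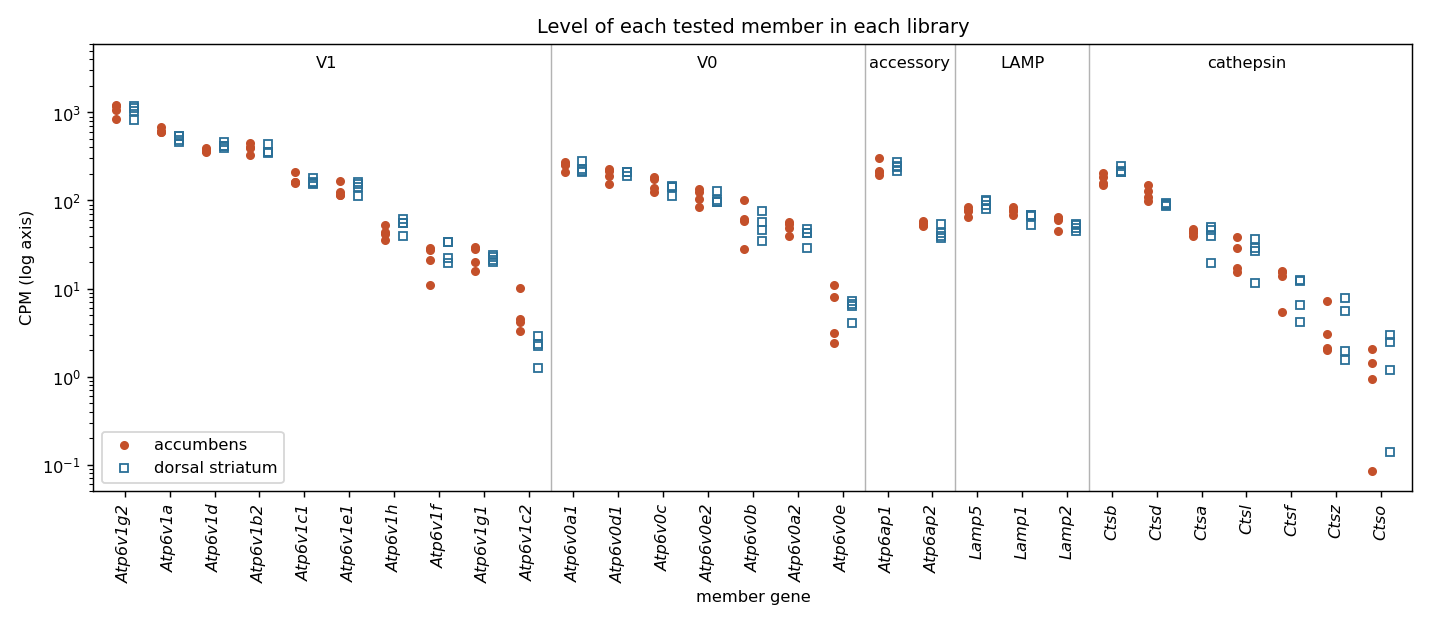
Level of the 29 tested members in each library, as CPM on a log axis, grouped by role and ordered by mean level within each role; filled circles are the 4 accumbens libraries and open squares the 4 dorsal striatum libraries. The regions lie close together for most members, and the levels span from about 0.1 CPM for Ctso to over 1000 CPM for Atp6v1g2.

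Lysosomal genes as a class are known as targets of the transcription factor TFEB, which binds a palindrome with the core CACGTG (the CLEAR element). RefSeq promoter windows of build GRCm38.p6, from 250 bases before to 50 bases after a start site, were found for 30 of the 38 members, in 35 windows. The letters CACGTG, which read the same on both strands, stood in 9 of the 35 windows (25.7%) and in 7.15% of all 32851 promoter windows. The longer palindrome TCACGTGA, which contains CACGTG, stood in 5 member windows (14.3%) and in 0.974% of all windows. With a G before it and a C after it, the palindrome stood in 0 member windows and 0.326% of all windows. The windows with TCACGTGA belong to a V1 gene, a pair of V0 genes and a pair of cathepsin genes, so the letters cross the roles, and they are shown for that reason with 20 bases on either side and the palindrome in capitals:
Atp6v1a, chr16:44139364-44139411, minus strand: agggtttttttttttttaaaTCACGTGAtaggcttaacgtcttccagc
Atp6v0d1, chr8:105566041-105566088, minus strand: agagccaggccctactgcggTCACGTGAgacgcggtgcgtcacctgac
Atp6v0e, chr17:26676378-26676425, plus strand: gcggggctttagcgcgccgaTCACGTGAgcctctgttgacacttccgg
Ctsa, chr2:164833740-164833787, plus strand: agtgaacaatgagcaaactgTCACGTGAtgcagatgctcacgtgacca
Ctsd, chr7:142387899-142387946, minus strand: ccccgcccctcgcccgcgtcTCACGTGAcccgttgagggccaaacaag
The Ctsa stretch holds the palindrome again further along, in lower case. A match is a description of these letters and does not show binding. The genes with TCACGTGA had log2 fold changes of 0.31 for Atp6v1a, 0.02 for Atp6v0e, 0.17 for Ctsa and 0.43 for Ctsd. For Atp6v0d1 it was -0.06 ± 0.14 SE. None of the 5 was called, and a link between these letters and region was not tested.

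Within V1, the catalytic sector, Atp6v1g2 had the highest level, in CPM and per kilobase. It encodes the G2 form of a peripheral stalk subunit, the form known from neurons, and lies on chromosome 17 from 35233660 to 35238767 (GRCm38), with 144 bases of exon shared with Nfkbil1 on the opposite strand. Its levels were 1072, 1173, 1224 and 849 CPM in accumbens 1 to 4, against 1123, 1051, 830.3 and 1194.5 CPM in dorsal striatum 1 to 4. The ranges covered each other almost fully, with the lowest library of each region well below the other 3. The mean was 1079.5 ± 166 CPM in accumbens and 1049.8 ± 158 CPM in dorsal striatum (SD, n = 4 each), with a log2 fold change of 0.04 ± 0.14 SE that edgeR did not call (adjusted p = 0.945).

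Atp6v1a, the catalytic A subunit that splits ATP (chromosome 16, 44085402 to 44139705), had the smallest adjusted p of the members, next to Ctsd. It stood at 600.3, 617, 693 and 594 CPM in accumbens 1 to 4 and at 544, 536, 484 and 459.8 CPM in dorsal striatum 1 to 4. Every accumbens library lay above every dorsal striatum library, by a modest margin. The mean was 626 ± 45.5 CPM in accumbens and 506 ± 40.7 CPM in dorsal striatum (SD, n = 4 each), a log2 fold change of 0.31 ± 0.11 SE. Its 95% interval ran from 1.05-fold to 1.46-fold, and the difference was not called after adjustment over all genes (edgeR adjusted p = 0.180). Over the 17 other settings and library sets the adjusted p ran from 0.0851 with DESeq2 to 0.454 with a covariate for glial markers, and the log2 fold change from 0.25 to 0.34.

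The B2 form of the nucleotide-binding B subunit, Atp6v1b2, is the partner of the A subunit in the catalytic ring. It ranged from 329 to 455 CPM in accumbens and from 349 to 437 CPM in dorsal striatum, with the regions overlapping (log2 fold change 0.08 ± 0.13 SE). The stalk and connecting subunits did likewise. Atp6v1d, of the central rotor, averaged 372 ± 19.5 CPM in accumbens and 424 ± 31.5 CPM in dorsal striatum (SD, n = 4 each), with a log2 fold change of -0.19 ± 0.11 SE that edgeR did not call (adjusted p = 0.494). Atp6v1c1, which joins the stator to the membrane sector, had a log2 fold change of 0.09 ± 0.14 SE, and Atp6v1e1, of the peripheral stalk, one of -0.14 ± 0.17 SE. For Atp6v1h, a regulatory subunit, it was -0.28 ± 0.21 SE, for Atp6v1f, of the central rotor, -0.29 ± 0.31 SE, and for Atp6v1g1, the widely used G form, 0.10 ± 0.27 SE.

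Atp6v1c2, a second gene for the C subunit that is known from kidney and lung rather than brain, was the member with the largest fold change. Its counts were 50, 118, 42 and 50 reads in accumbens 1 to 4 and 19, 22, 9 and 29 reads in dorsal striatum 1 to 4. In CPM these are 4.49, 10.1, 3.32 and 4.14 in accumbens and 2.25, 2.33, 1.25 and 2.86 in dorsal striatum. The regions did not overlap, with accumbens 2 far above the other accumbens libraries. The log2 fold change was 1.33 ± 0.64 SE, with a 95% interval from 0.992-fold to 6.39-fold, and was not called (edgeR adjusted p = 0.343). Without accumbens 2 it was 0.87, and without both accumbens 2 and dorsal striatum 3 it was 0.68. Its exons overlap those of Pdia6 on the opposite strand by 50 bases, and the strand setting of the counting is not given in the labels, so reads of the pair may be mixed there.

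In V0, the membrane sector, no regional difference was called and no member separated the regions. Atp6v0a1, the a1 form of the proton-channel subunit, known from neurons and synaptic vesicles, stood at 257, 212, 275 and 252 CPM in accumbens 1 to 4 and at 278, 226, 209 and 216 CPM in dorsal striatum 1 to 4. The highest library of all was dorsal striatum 1, and the rest were interleaved (log2 fold change 0.10 ± 0.14 SE, edgeR adjusted p = 0.809). Atp6v0d1, which couples the rotor to the proteolipid ring, stood at 192, 155, 227 and 214 CPM in accumbens 1 to 4 and at 190.2, 213, 208 and 209 CPM in dorsal striatum 1 to 4. Its dorsal striatum values sat inside the wider accumbens range (log2 fold change -0.06 ± 0.14 SE, edgeR adjusted p = 0.914).

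The ring itself is built from the products of Atp6v0c and Atp6v0b. Atp6v0c averaged 155 ± 27.6 CPM in accumbens and 137 ± 15.6 CPM in dorsal striatum (SD, n = 4 each; log2 fold change 0.18 ± 0.16 SE); GENCODE M21 annotates 2 pseudogenes named after it, and reads that aligned to several places were not assigned, so its level is uncertain. Atp6v0b ranged widely within each region, with 28.1 to 100.7 CPM in accumbens and 34.4 to 76.6 CPM in dorsal striatum. Its log2 fold change of 0.23 ± 0.31 SE became -0.10 without accumbens 1. Atp6v0a2, the a2 form known from Golgi and endosomes, had a log2 fold change of 0.31 ± 0.21 SE, and the small membrane subunit genes Atp6v0e2 and Atp6v0e had 0.09 ± 0.17 and 0.02 ± 0.55 SE.

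Both accessory subunit genes are on the X chromosome. Atp6ap1 encodes Ac45, needed for assembly and targeting of the pump. Its levels were 300.4, 209, 214 and 197 CPM in accumbens 1 to 4 and 271, 245, 239.6 and 218 CPM in dorsal striatum 1 to 4. The single high value of accumbens 1 lay above all dorsal striatum libraries and the other accumbens libraries lay below all of them, so the regions overlapped (log2 fold change -0.08 ± 0.15 SE, edgeR adjusted p = 0.871). Atp6ap2, the prorenin receptor, stood at 51.3, 52.4, 57.8 and 55.4 CPM in accumbens 1 to 4 and at 43.2, 37.7, 39.8 and 53.8 CPM in dorsal striatum 1 to 4. Only dorsal striatum 4 reached the accumbens range, and the difference was not called (log2 fold change 0.31 ± 0.19 SE, edgeR adjusted p = 0.496).

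Levels per kilobase of exon let the genes be set against each other. On this scale (RPKM, here CPM per kilobase of GENCODE M21 exon union) 23 of the 29 tested members lay above the median of 11584 tested genes with a length, and 12 lay in the top 10%. Atp6v1g2 led with 430.1 ± 66.3 RPKM in accumbens and 418 ± 62.8 RPKM in dorsal striatum (SD, n = 4 each), at percentile 99.8 of the tested genes. Behind it came Atp6v0d1 (109.9 and 114 RPKM in accumbens and in dorsal striatum), Atp6v1a (104 and 83.7), Atp6v1d (80.9 and 92.1), Atp6ap1 (76.1 and 80.5) and Atp6v1b2 (74.4 and 70.5), neighbours whose order differed between regions. The length used matters to this order: with the longest coding transcript in place of the exon union, Atp6v1g2 stayed at rank 1 while Atp6v0c moved from rank 9 to rank 4 and Ctsd from rank 8 to rank 13, and 8 of the top 10 were shared.

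Where a subunit has alternative genes, 1 of them carried most of the reads per kilobase in every library. Atp6v1g2 made up 95.4% ± 0.966 of the sum of Atp6v1g2 and Atp6v1g1 in accumbens and 95.5% ± 0.893 in dorsal striatum (SD, n = 4 each). Atp6v0e2 made up 96.3% ± 2.99 of the Atp6v0e2 and Atp6v0e sum in accumbens and 96.4% ± 0.805 in dorsal striatum. For Atp6v0a1 over Atp6v0a2 the share was 83.5% ± 3.11 in accumbens and 85.3% ± 3.74 in dorsal striatum. Atp6v1c1 over Atp6v1c2 was the only pair of the 4 whose shares did not overlap between regions, from 89.1% to 94.95% in accumbens and from 96.0% to 98.1% in dorsal striatum, as in the Atp6v1c2 counts given above. The remaining isoform genes among the members were Atp6v1b1, Atp6v1e2, Atp6v1g3, Atp6v0a4 and Atp6v0d2, known from kidney, testis or bone-resorbing cells. They had 0 reads in all 8 libraries, which allows at most 0.237 to 0.415 CPM per library (3 reads, counting error only). Tcirg1, the a3 subunit gene, was not matched by symbol and is not part of the Atp6v0a1 share.

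**Figure D2:**
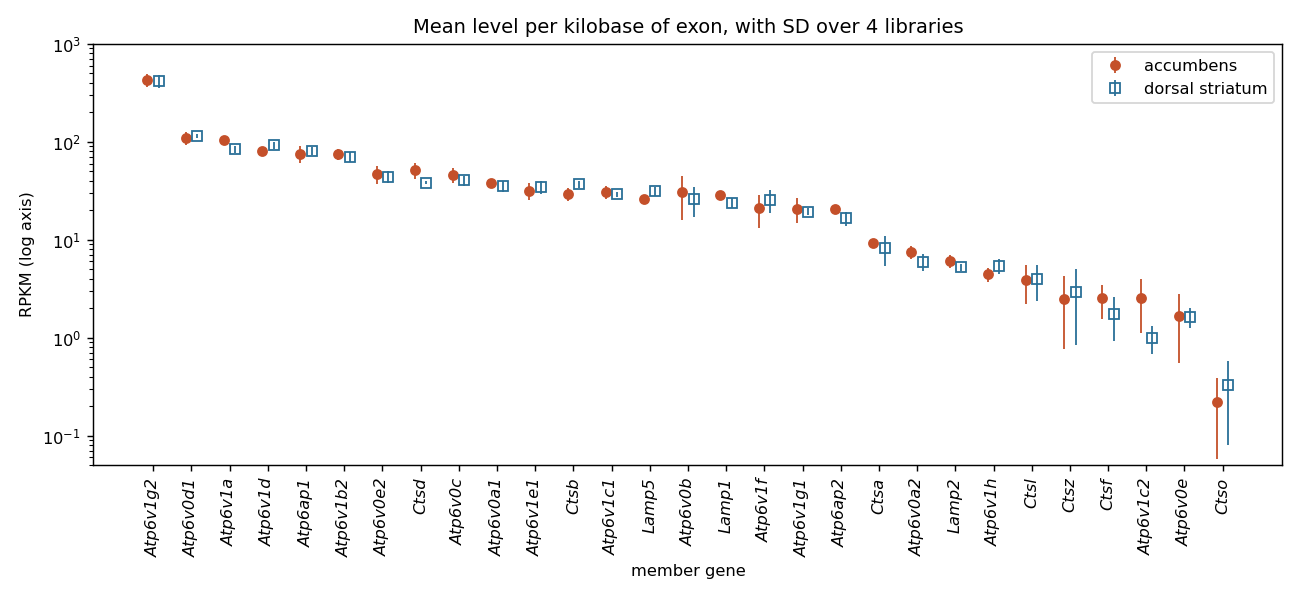
Mean level of each tested member per kilobase of exon (RPKM, log axis) in accumbens (filled circles) and dorsal striatum (open squares), with bars for the SD over 4 libraries, ordered by the mean over both regions; a bar that would go below 0.05 RPKM is cut off by the axis. Atp6v1g2 stands apart at over 400 RPKM, most pump subunits lie between 20 and 115 RPKM, and the minor isoform genes Atp6v1c2 and Atp6v0e lie below 3 RPKM.

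Among the LAMP genes, Lamp1 and Lamp2 leaned toward accumbens and Lamp5 toward dorsal striatum, and none was called. Lamp1, the chief glycoprotein of the lysosomal membrane (chromosome 8, 13159161 to 13175338), stood at 84.5, 69.3, 75.4 and 78.9 CPM in accumbens 1 to 4 and at 69.1, 68.7, 52.3 and 66.5 CPM in dorsal striatum 1 to 4. The regions did not overlap, but accumbens 2 and dorsal striatum 1 almost met (log2 fold change 0.26 ± 0.17 SE, edgeR adjusted p = 0.532). Lamp1 exons overlap those of Grtp1 on the opposite strand by 249 bases. Lamp2, which includes the receptor of chaperone-mediated autophagy, ranged from 45.0 to 64.5 CPM in accumbens and from 44.9 to 54.2 CPM in dorsal striatum (log2 fold change 0.22 ± 0.19 SE).

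Lamp5, a brain-enriched family member known from GABA neurons, averaged 25.9 ± 2.60 RPKM in accumbens and 31.4 ± 3.19 RPKM in dorsal striatum (SD, n = 4 each). In CPM it stood at 75.6, 83.3, 65.4 and 79.0 CPM in accumbens 1 to 4 and at 89.2, 98.3, 80.4 and 101 CPM in dorsal striatum 1 to 4. The only overlap was between accumbens 2 and dorsal striatum 3 (log2 fold change -0.28 ± 0.16 SE, edgeR adjusted p = 0.453). Leaving out both of those libraries, a setting added after seeing the data, removes the highest accumbens and the lowest dorsal striatum value of Lamp5. A larger difference thus follows from the choice (log2 fold change -0.39, edgeR adjusted p = 0.328). Lamp3, known from maturing dendritic cells, had a single read, in accumbens 1.

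The main cathepsins leaned in opposite directions. Ctsd, the aspartic protease cathepsin D (chromosome 7, 142375911 to 142388038), stood at 109.99, 151, 127 and 98.6 CPM in accumbens 1 to 4 and at 88.6, 94.1, 90.9 and 87.1 CPM in dorsal striatum 1 to 4. The dorsal striatum libraries were nearly equal and all lay below the widely spread accumbens libraries. The mean was 122 ± 22.8 CPM in accumbens and 90.2 ± 3.03 CPM in dorsal striatum (SD, n = 4 each; log2 fold change 0.43 ± 0.16 SE), and the 95% interval ran from 1.07-fold to 1.71-fold. The difference was not called (edgeR adjusted p = 0.180). Over the other settings and library sets its adjusted p ran from 0.104 with DESeq2 to 0.447 without both accumbens 2 and dorsal striatum 3, and its log2 fold change from 0.31 to 0.52.

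Ctsb, the cysteine protease cathepsin B (chromosome 14, 63122462 to 63145923), went the other way. It stood at 208, 157, 187 and 151 CPM in accumbens 1 to 4 and at 247, 218, 213 and 213 CPM in dorsal striatum 1 to 4. Every accumbens library lay below every dorsal striatum library, with accumbens 1 close to the lowest of them. The mean was 176 ± 26.5 CPM in accumbens and 223 ± 16.2 CPM in dorsal striatum (SD, n = 4 each; log2 fold change -0.34 ± 0.14 SE), and the 95% interval ran from 0.643-fold to 0.966-fold. It was not called either (edgeR adjusted p = 0.231, from 0.160 with DESeq2 to 0.460 over the other settings and library sets). Ctsb exons overlap those of Fdft1 on the opposite strand by 774 bases; Fdft1 itself averaged 90.6 CPM in accumbens and 87.7 CPM in dorsal striatum.

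**Figure D3:**
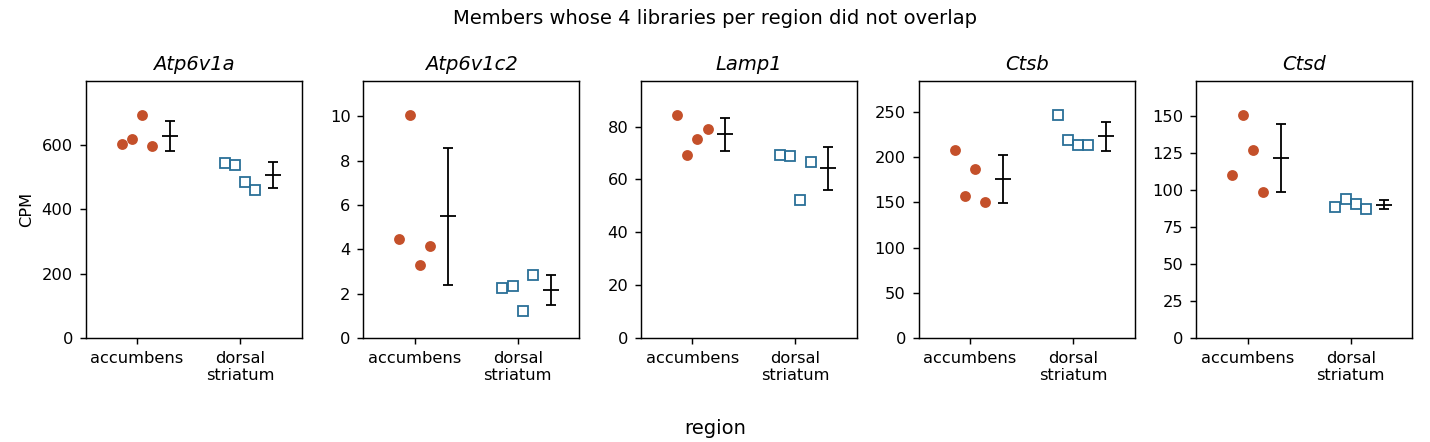
CPM of the 5 members whose libraries did not overlap between regions, with accumbens as filled circles left of dorsal striatum as open squares; each point is a library, the bar beside the points gives the mean and SD, and each panel has its own axis from 0. Atp6v1a, Atp6v1c2, Lamp1 and Ctsd lie higher in accumbens and Ctsb lower, and accumbens 2 stands well above the other accumbens libraries for Atp6v1c2.

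Per kilobase the other tested cathepsin genes were lower, with means between 0.221 and 9.24 RPKM in accumbens and between 0.328 and 8.20 RPKM in dorsal striatum. Ctsa, a serine carboxypeptidase that also protects lysosomal glycosidases, ranged from 39.7 to 47.3 CPM in accumbens and from 19.5 to 49.8 CPM in dorsal striatum, where dorsal striatum 3 was the low library (log2 fold change 0.17 ± 0.26 SE, and -0.05 without dorsal striatum 3). Its exons overlap those of Neurl2 and Pltp on the opposite strand. Ctsl, a cysteine protease, averaged 24.9 ± 10.7 CPM in accumbens and 25.7 ± 10.3 CPM in dorsal striatum (SD, n = 4 each), with full overlap. The further cysteine cathepsin genes had log2 fold changes of 0.52 ± 0.44 SE for Ctsf, -0.23 ± 0.70 SE for Ctsz and -0.57 ± 1.01 SE for Ctso, the last from 1 to 25 reads per library.

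Ctsc and Ctsk, cathepsins known from immune and from bone-resorbing cells, and Ctsh, an aminopeptidase, had too few reads for a test. Ctsc had 0 to 3 reads per library in accumbens and 0 to 3 in dorsal striatum, Ctsk 0 to 8 reads in accumbens and 0 to 3 in dorsal striatum, and Ctsh 0 to 15 reads in accumbens and 0 to 11 in dorsal striatum. The 11 microglia markers on the list summed to between 1.88 and 17.8 CPM in accumbens libraries, with accumbens 1 (17.8) and accumbens 3 (10.1) highest. In dorsal striatum libraries they summed to between 0.887 and 3.92 CPM. C1qa had 0 reads in every library, and none of the list had enough reads for a test. Astrocyte markers summed to between 264 and 709.5 CPM in accumbens and between 200.3 and 381 CPM in dorsal striatum. Of 9 tested, 8 had positive log2 fold changes (median 0.67), and edgeR called Slc1a2 higher in accumbens. Oligodendrocyte markers summed to between 129 and 329 CPM in accumbens and between 124 and 197 CPM in dorsal striatum. All 6 tested had positive log2 fold changes (median 0.59), with 0 called. Endothelial markers summed to between 6.82 and 148 CPM in accumbens, with accumbens 4 and 1 highest, and between 5.92 and 70.3 CPM in dorsal striatum, with dorsal striatum 3 highest. Those 3 libraries also had the highest Ctsl and Ctsh values of all 8. Ependymal and choroid markers did not overlap, at 14.2 to 17.9 CPM in accumbens and 5.95 to 10.1 CPM in dorsal striatum. The part of the microglia, endothelial and ependymal markers in the results was not tested. With a covariate made from the 15 tested astrocyte and oligodendrocyte markers the log2 fold changes were 0.29 for Atp6v1a, 0.44 for Ctsd, -0.37 for Ctsb and 0.23 for Lamp1. The covariate itself averaged 0.247 ± 0.341 in accumbens and -0.247 ± 0.547 in dorsal striatum (SD). It thus varied in part with region, so this fit cannot fully separate glial signal from region. The covariate moved other members further: Ctsl to -0.62, Ctsz to -0.83, Ctso to -0.96, Ctsf to 0.79 and Atp6v1f to -0.026. In that fit 0 members were called, where 2.17% of all tested genes were.

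Spread within a region differed between members, and for some members between regions as well. The coefficient of variation of CPM had a median over the 29 members of 16.9% in accumbens and 13.7% in dorsal striatum. In accumbens it was lowest for Atp6v1d (5.23%) and in dorsal striatum for Ctsd (3.36%), and it was highest for Ctso in both (73.7% and 75.6%). It was larger in accumbens for 17 members, such as Ctsd (18.8% against 3.36%). For 12 it was larger in dorsal striatum, such as Ctsa (34.8% against 7.63% in accumbens).

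**Figure D4:**
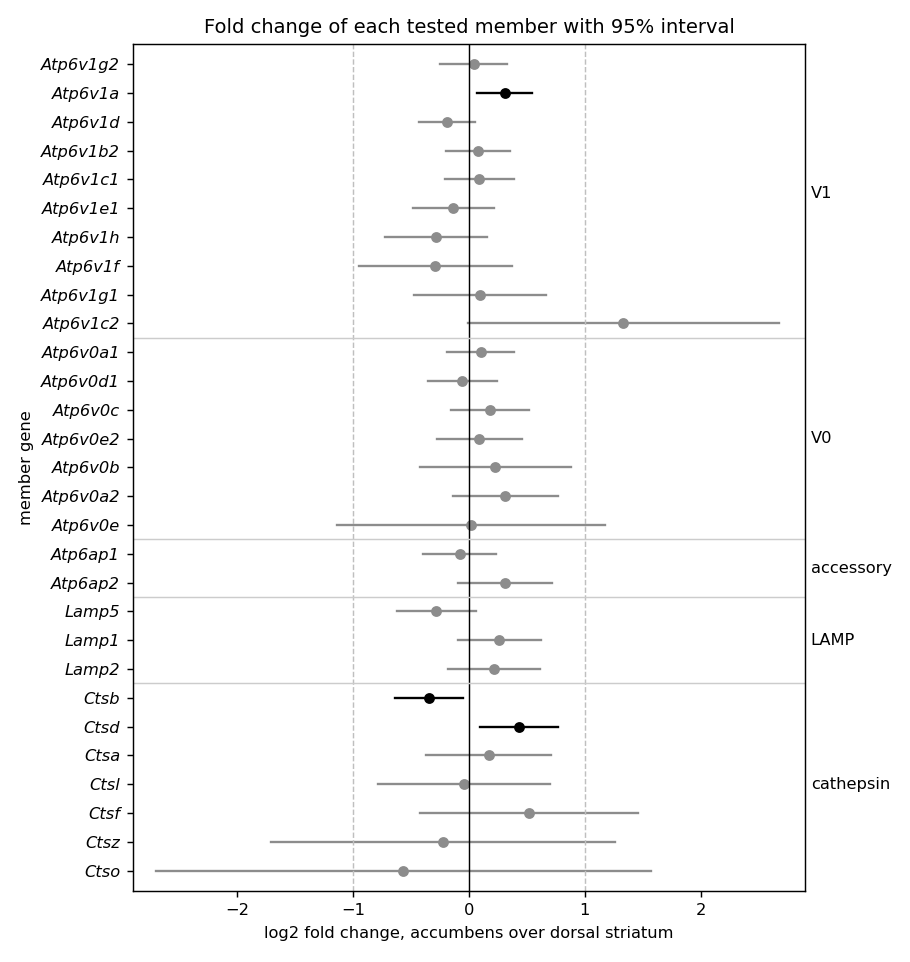
Log2 fold change of accumbens over dorsal striatum for the 29 tested members, as points with 95% intervals from edgeR's fit, grouped by role; black marks the 3 members with an unadjusted p under 0.05, grey the other members, and dashed lines mark 2-fold. The intervals of 24 members stay between the dashed lines, and those of Atp6v1a, Ctsd and Ctsb leave out 0.

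Genes around the pump and the lysosome were counted in 7 further lists, with 115 of 130 genes tested, 3 of them called higher and 1 lower in accumbens. These 4 are 3.48% of the tested list genes, near the 3.72% called among all tested genes. The list of V-ATPase assembly factors and regulators also held Tcirg1, the a3 subunit gene, which the symbol rule did not match. Of 13 tested genes on that list, 0 were called in either direction by edgeR. At an unadjusted p under 0.05 there was 1 (median log2 fold change 0.09). Dmxl2 and Wdr7, which together help V1 join V0, had log2 fold changes of 0.09 ± 0.13 and 0.43 ± 0.15 SE. Wdr7 was called higher only without accumbens 1, among all 17 alternatives. Of 33 other soluble lysosomal enzymes and activators, 25 had positive log2 fold changes (75.8%, beside 51.8% of all tested genes; median 0.23). Of the same 33, 7 reached an unadjusted p under 0.05 (21.2%, beside 14.8%) and 1 was called (3.03%, beside 3.72%). That gene, Gaa, the acid glucosidase that breaks down glycogen, stood at 433, 369, 446 and 389 CPM in accumbens 1 to 4 and at 304, 324, 209 and 192 CPM in dorsal striatum 1 to 4.

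Gaa rose in accumbens with no overlap (log2 fold change 0.67 ± 0.16 SE, edgeR adjusted p = 0.0245). Its call was lost without accumbens 1, accumbens 3, dorsal striatum 3 or dorsal striatum 4 (adjusted p up to 0.0951), without both accumbens 2 and dorsal striatum 3 (0.0860) and with the glial marker covariate (log2 fold change 0.51, adjusted p = 0.182). From the same list, Ids, a sulfatase, and Psap, the precursor of the saposins, were not called (0.06 ± 0.13 and 0.36 ± 0.15 SE).

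Sorting receptors held the other called genes. Of 17 tested genes of mannose 6-phosphate and other sorting routes, 2 were called higher and 1 lower in accumbens, all 3 of the VPS10 domain family, with a list median of -0.06. Over all tested genes 1.6% were called higher and 2.12% lower. Sorcs3 stood at 71.0, 69.5, 99.2 and 78.5 CPM in accumbens 1 to 4 and at 39.8, 27.8, 26.3 and 25.6 CPM in dorsal striatum 1 to 4 (log2 fold change 1.41 ± 0.21 SE, edgeR adjusted p = 0.000577), and it was called under all 17 other settings and library sets. Sorl1, a receptor that sorts the amyloid precursor protein, stood at 123, 133, 99.7 and 122 CPM in accumbens 1 to 4 and at 81.5, 74.5, 65.9 and 61.5 CPM in dorsal striatum 1 to 4. Its log2 fold change was 0.75 ± 0.16 SE (edgeR adjusted p = 0.0108). The call was lost with the glial marker covariate (log2 fold change 0.62, adjusted p = 0.135) and without both accumbens 2 and dorsal striatum 3 (0.67, adjusted p = 0.0697). Sorcs2 fell in accumbens (24.8 ± 7.01 CPM in accumbens and 50.5 ± 11.5 CPM in dorsal striatum, log2 fold change -1.02 ± 0.25 SE, edgeR adjusted p = 0.0260). That call was lost without accumbens 1, 2 or 4 or dorsal striatum 1 or 3 (adjusted p up to 0.122), without both accumbens 2 and dorsal striatum 3 (log2 fold change -0.90, adjusted p = 0.105) and with the covariate (-0.91, adjusted p = 0.158). Sort1, the sortilin gene, had a log2 fold change of -0.06 ± 0.13 SE, and Vps26b, from the same list, -0.28 ± 0.15 SE.

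The remaining lists had 0 called genes in edgeR. They were 25 other lysosomal membrane proteins (2 at an unadjusted p under 0.05, median log2 fold change 0.04), 18 genes of the TFEB family and the lysosomal mTORC1 machinery (3, median 0.21), 5 cathepsin inhibitors (1, median 0.27) and 4 vesicular transmitter transporters (0, median 0.80). Cst3, the secreted cathepsin inhibitor cystatin C, which is known from astrocytes as well, averaged 77.1 ± 19.6 CPM in accumbens and 47.7 ± 7.07 CPM in dorsal striatum (SD, n = 4 each) with no overlap. Its log2 fold change of 0.69 ± 0.21 SE missed the threshold in edgeR (adjusted p = 0.0795). Cst3 was called with DESeq2 (adjusted p = 0.0230), with limma-voom (0.0417), without a filter on low counts (0.0418) and without accumbens 2 (0.0476), and over the other alternatives its adjusted p ran up to 0.290 with the glial marker covariate. Slc32a1, the vesicular GABA transporter that runs on the pump's gradient, was not called (0.23 ± 0.17 SE, adjusted p = 0.603). Slc17a7, also among the 4 transporters, stood at 59.8, 36.4, 54.4 and 14.2 CPM in accumbens 1 to 4. In dorsal striatum 1 to 4 it stood at 20.6, 39.7, 2.35 and 0.985 CPM. Its log2 fold change of 1.37 ± 0.71 SE was not called (edgeR adjusted p = 0.394), though it was called without a filter on low counts. Which cells gave its reads was not tested. Among the lysosomal membrane proteins, Tmem106b and Abca2 had log2 fold changes of -0.19 ± 0.14 and 0.07 ± 0.20 SE. In the TFEB and mTORC1 list, Rragd leaned toward dorsal striatum (-0.41 ± 0.16 SE, edgeR adjusted p = 0.212). Mtor had 0.22 ± 0.16 SE, and the inhibitor gene Serpini1 had 0.31 ± 0.21 SE. DESeq2 called 5 of the pathway genes higher and 1 lower.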

How the data were processed

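Ribosome-bound RNA was sequenced from 4 accumbens and 4 dorsal striatum libraries. The files deposited for each library list whole-number read counts by gene symbol without normalization; per the submitters' processing notes, reads were aligned to mm10 with STAR 2.0.0e and counted with HTSeq. Their annotation and strand setting are not given in the sources used here. Reads with no gene, several genes or several alignments (27.1% to 40.6% of counted reads) stayed out of library sizes. Members and lists were chosen with earlier results of these data known; 1 further cathepsin gene is not reported here.

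Region was tested with edgeR 4.0.16 in R 4.3.3 (TMM, filterByExpr with a minimum count of 10, quasi-likelihood F test, Benjamini-Hochberg over 12467 genes, called under 0.05). The fit was also run on simulated counts whose changes were larger than the estimate for any member. That run does not show how well smaller differences are found. CPM use TMM-scaled sizes. Each standard error is the log2 fold change divided by the root of F, and intervals use that test's degrees of freedom. Coordinates and lengths are those of GENCODE M21 (GRCm38). Of the members, 14 have an exon that overlaps another gene. Libraries were given for the called and non-overlapping members and for the 2 most abundant of each role; from other lists, called genes and the most abundant were named. Alternatives included DESeq2 1.42.0 and limma 3.58.1 (voom). By chi-square over genes, all replicate pairs differed by more than sampling noise.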

Additional observations from a re-analysis of the deposited data

Results flagged for a closer look

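In 7 of 58 checks of 4 libraries, a library stood apart from the other 3 of its region by a gap past Dixon's 95% critical value; chance gives about 1 in 20. In accumbens these were Atp6v1c1 in accumbens 2, at 212 CPM (nearest 162 CPM), and Atp6ap1 in accumbens 1, at 300.4 CPM (nearest 214 CPM). In dorsal striatum they were Atp6v1b2 in dorsal striatum 4, at 437 CPM (nearest 356 CPM), Atp6v0e2 in dorsal striatum 1, at 127 CPM (nearest 100.02 CPM), and Ctsb in dorsal striatum 1, at 247 CPM (nearest 218 CPM). Low values were found for Atp6v0c, at 114 CPM (nearest 143 CPM), and Lamp1, at 52.3 CPM (nearest 66.5 CPM), both in dorsal striatum 3, the smallest library.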

How the results depend on the processing

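Under all 17 alternatives 0 members were called in either direction. Over all genes, calls higher in accumbens (200) were 350 without a filter on low counts, 375 with DESeq2 and 120 with the glial marker covariate, and calls lower (264) were 150 with that covariate. With 1 library left out they ran from 139 to 191 higher and from 184 to 236 lower. Leaving out both accumbens 2 and dorsal striatum 3, added after seeing the data, gave 140 higher and 190 lower. Pathway genes called higher (3) were 6 without a filter, 5 with DESeq2, 1 without both libraries and 2 to 4 with 1 library left out; those called lower (1) were 0 with the covariate and without both libraries, and 0 to 1 with 1 left out. The replicate number as a block gave 194 higher and 238 lower and changed no member's call; same-numbered libraries did not deviate together (correlations from -0.08 to 0.01), and the labels do not say whether a number marks a shared animal or batch, so the libraries were not treated as pairs.

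No member was called in any fit, and the log2 fold changes of some members turned sign. Without both libraries they were -0.021 for Atp6v1b2, -0.024 for Atp6v1c1, -0.10 for Atp6v1g2, 0.048 for Atp6v0d1, -0.065 for Ctsa and 0.34 for Ctsl. With limma-voom they were -0.011 for Atp6v1g2 and 0.061 for Ctsl. Atp6v0e gave -0.21 with the block and -0.13 with the covariate. With 1 library left out they ran from -0.024 to 0.14 for Atp6v1c1, from -0.037 to 0.25 for Atp6v1g1, from -0.057 to 0.14 for Atp6v1g2, from -0.10 to 0.47 for Atp6v0b, from -0.13 to 0.039 for Atp6v0d1, from -0.43 to 0.28 for Atp6v0e, from -0.0075 to 0.21 for Atp6v0e2, from -0.048 to 0.31 for Ctsa, from -0.32 to 0.17 for Ctsl and from -0.82 to 0.25 for Ctsz. The causes were not tested. Ctso had 1 to 25 reads per library and Atp6v1c2 9 to 118, and both also varied between libraries of a region.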

Other observations

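The ratio of Ctsd to Ctsb, chosen after their values were seen and so given with no test, was 0.530, 0.960, 0.680 and 0.654 in accumbens 1 to 4 and 0.359, 0.431, 0.426 and 0.409 in dorsal striatum 1 to 4, as CPM over CPM. Every accumbens library had a higher ratio of cathepsin D to cathepsin B reads than every dorsal striatum library. This follows from the separation of each gene given above and is not a further result. The mean was 0.706 ± 0.182 in accumbens and 0.406 ± 0.0329 in dorsal striatum (SD, n = 4 each), and accumbens 2 was the highest.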
